A study of Mus musculus with 48 samples.

Results

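The neurotrophin group described here holds 6 genes: the ligands Bdnf and Ntf3, the receptors Ntrk2, Ntrk3 and Ngfr, and the sorting receptor Sort1. They were taken by symbol from the 23420 genes of the count table, and their 95 exon bins by Ensembl identifier from 368092 bins, 58 of them in Ntrk2, Ntrk3 and Bdnf. Exon bins are the pieces left when exons are split wherever the set of annotated transcripts covering them changes. The RNA came from the striatum, the forebrain nucleus that receives cortical and dopamine input, at about 50 days of age. Congenic mice carried a 112 kb segment on the C57BL/6J background, and their wild-type littermates were C57BL/6J (B6). Each genotype had 4 males and 4 females, and 3 mm punches of both hemispheres were pooled within a mouse, with no treatment named. The title of the series asks about splicing, and neither labels nor design text name the segment's donor strain.

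Neurotrophins are secreted growth factors that keep neurons alive and tune their synapses. BDNF acts through TrkB, the receptor tyrosine kinase that Ntrk2 encodes, and neurotrophin-3 acts mainly through TrkC, encoded by Ntrk3. Both receptor genes also make truncated transcripts that keep the ligand-binding and transmembrane parts and lack the kinase. In adult brain the truncated TrkB form is known as the main one of astrocytes. The striatum is known to receive most of its BDNF as protein from cortical axons, and medium spiny neurons, its principal cells, carry TrkB.

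The sequences below show where the truncated and kinase transcripts part, since the shares of receptor ends rest on these junctions. Each run is read from the NCBIM37 genome in the direction of transcription, with the last 30 bases of the last shared coding exon in lower case and the start of the alternative exon in capitals. For truncated Ntrk2 the capitals run to the end of the stop codon, 11 codons of its own after the bases that complete a shared codon. For the other 3 receptor ends the capitals are the 60 bases that open the alternative exon. The Ntrk2 junction (plus strand) joins chr13:58979594-58979623 to chr13:59033384-59033421 in the truncated and to chr13:59087163-59087222 in the kinase transcript. The Ntrk3 junction (minus strand) joins chr7:85500913-85500942 to chr7:85449253-85449312 in the truncated and to chr7:85405241-85405300 in the kinase transcript.

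Ntrk2 truncated: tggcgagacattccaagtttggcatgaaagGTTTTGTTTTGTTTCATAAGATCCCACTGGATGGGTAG
Ntrk2 kinase: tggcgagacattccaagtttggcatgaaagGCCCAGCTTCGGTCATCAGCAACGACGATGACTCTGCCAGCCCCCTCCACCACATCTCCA
Ntrk3 truncated: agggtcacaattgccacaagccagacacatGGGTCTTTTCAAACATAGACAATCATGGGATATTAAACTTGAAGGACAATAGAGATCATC
Ntrk3 kinase: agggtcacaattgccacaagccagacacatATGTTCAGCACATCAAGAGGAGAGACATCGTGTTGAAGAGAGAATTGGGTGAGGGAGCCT

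Mice held 73.1 to 82.0 M counts in genes and 118.5 to 133.2 M in bins, M being the mega prefix. Medium spiny neuron markers were high in every mouse, with 1642 to 2294 counts-per-million (CPM) of Ppp1r1b and 428 to 570 CPM of Adora2a. The glutamate transporter gene Slc17a7, a cortical marker, varied from 20.7 to 186 CPM. Mouse Sample_4806, recorded as female, held 2.64 CPM of Xist, where males held 1.35 to 17.6 CPM and the 7 other females 951 to 1549 CPM. Differences between the sexes in the 6 genes, their bins and their shares, and in the called genes of the lists, are therefore also given without it. Males had the lower mouse numbers, with 6 of 8 females numbered above all males, so sex cannot be told apart from what the numbers stand for.

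The receptors Ntrk2, Ntrk3 and Sort1 were abundant and even between mice, while both ligands and Ngfr were scarce. Set per kilobase of annotated exon, the level of Sort1 was 68.1 ± 5 CPM per kb, that of Ntrk2 37.3 ± 2.08 and that of Ntrk3 21 ± 1.52 (SD, n = 16 mice). These 3 ranges did not overlap, at 56.5 to 76.4, 32.9 to 41.3 and 18.6 to 24 CPM per kb. The order of Sort1 and Ntrk2 rests on the length used, since the 15.09 kb of Ntrk2 add up both of its alternative ends. Before division by length Ntrk2 had 563 ± 31.3 CPM and Sort1 515 ± 37.8 CPM (SD, n = 16 mice), with overlapping ranges. Among coding bins of like length, bin 10 of Ntrk2 (133 bases) held 16.15 counts per base and bin 9 of Sort1 (131 bases) 8.058, the opposite order. The size of the gap depended on the pair, since bin 13 of Ntrk2 (98 bases) held 21.175 and bin 19 of Sort1 (109 bases) 19.021. Ngfr had 0.721 ± 0.16, Bdnf 0.529 ± 0.271 and Ntf3 0.143 ± 0.184 CPM per kb (SD, n = 16 mice). The ranges of these 3 overlapped, so their order held for the means and for the medians (0.739, 0.561 and 0.0647 CPM per kb) but not for every mouse. In whole punches, fewer cells of a type and less RNA per cell cannot be told apart.

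**Figure D1:**
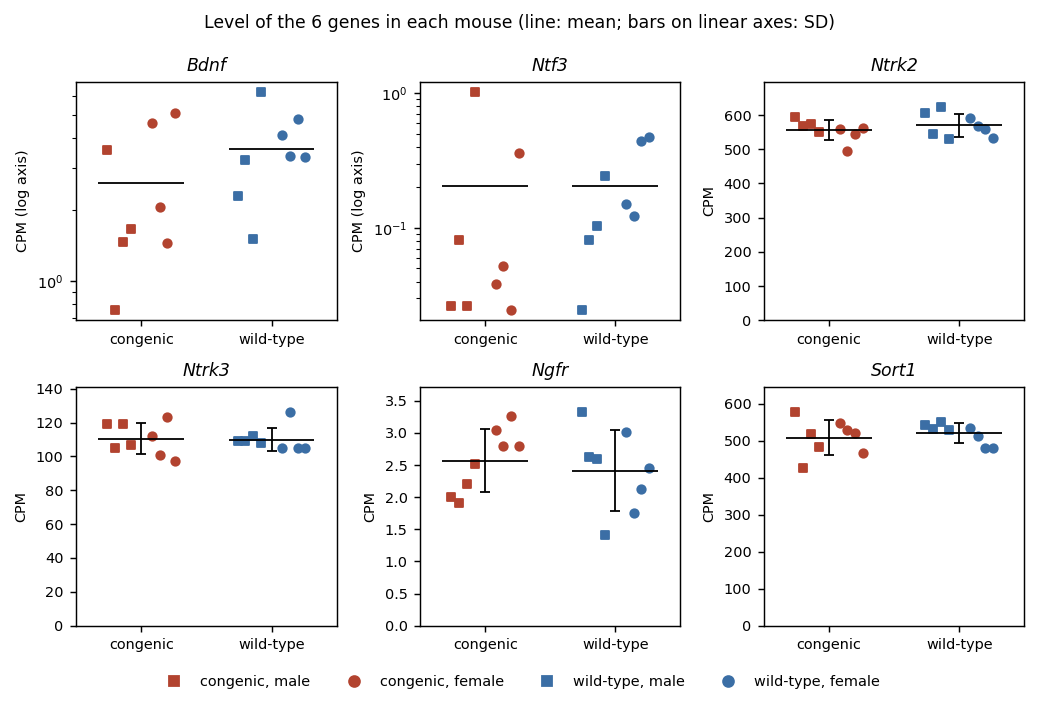
CPM of the 6 genes in each of 16 mice, congenic left of wild-type, with squares for males and circles for females. Lines are means and bars on linear axes are SD; Bdnf and Ntf3, on log axes, spread over 0.759 to 6.22 and 0.0248 to 1.01 CPM, while Ntrk2 stayed within 496 to 623 CPM.

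The ligands varied most. The SD of log2 CPM over the 16 mice was 0.84 for Bdnf and 1.61 for Ntf3, against a median of 0.13 over the 16716 genes tested, which put them at the 97.8th and 99.8th percentile. Ngfr had an SD of 0.34, at the 84.5th percentile, and these 3 also held the fewest counts, with means of 242, 15.8 and 194 per mouse for Bdnf, Ntf3 and Ngfr. Sort1 (0.11), Ntrk3 (0.10) and Ntrk2 (0.08) lay below the median gene.

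No gene of the group differed detectably between the genotypes. The edgeR quasi-likelihood test called 0 of the 6, as did DESeq2 and limma-voom, and 0 of the 6 had an unadjusted p under 0.05 with any of these tools. Over all genes, 0% were called by genotype (0 of 16716), with 256 at an unadjusted p under 0.05 (268 in DESeq2 and 277 in limma-voom). The count for the 6 genes therefore equalled the background. With each tool, an unadjusted p under 0.05 was rarer over all genes than a share of 0.05. Its absence among the 6 genes therefore carries little weight.

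Bdnf, the ligand of TrkB, lies on chromosome 2, 109514857 to 109567204, on NCBIM37, as do all coordinates here. In congenic mice its lowest, median and highest levels were 0.759, 1.86 and 5.1 CPM, and in wild-type mice 1.5, 3.35 and 6.22 CPM. Congenic mice took both the lowest value, in male Sample_4673, and the next lowest, in female Sample_4739, yet the genotypes overlapped over most of their range. Congenic mice averaged 2.58 ± 1.62 CPM, against 3.61 ± 1.46 CPM for wild-type mice (SD over 8 mice each). The log2 fold change was -0.53 (SE 0.36, 95% interval -1.30 to 0.25; adjusted p = 0.999 in edgeR), so the interval held both no change and a fall larger than the estimated fold of 0.693. Bdnf moved closely with the markers of cortical excitatory neurons, described further on, and with the score of those markers in the model its log2 fold change was -0.11.

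Ntf3, the ligand of TrkC, lies on chromosome 6, 126051431 to 126116762, and was near the limit of detection. Its counts were 2 to 74 in congenic animals, against 2 to 37 in wild-type animals. The lowest, median and highest levels were 0.0248, 0.0453 and 1.01 CPM for congenic mice, against 0.0248, 0.137 and 0.47 CPM for wild-type mice. A single congenic male, Sample_4733, stood above all other mice, and the genotypes otherwise overlapped. The log2 fold change was -0.02 (SE 0.81, adjusted p = 0.999 in edgeR), with a 95% interval of -1.75 to 1.71 over all mice. Without Sample_4733 it was -1.30 (unadjusted p = 0.0329 in edgeR, not called after correction), so the estimate depended on that mouse. With so few counts and this spread between mice, the 95% interval excluded neither a fall nor a rise within its bounds.

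Ntrk2, on chromosome 13, 58907957 to 59235331, had lowest, median and highest levels of 496, 562 and 595 CPM for congenic mice, against 530, 563 and 623 CPM for wild-type mice. Only the congenic female Sample_4737 lay below the wild-type range. The log2 fold change was -0.03 (SE 0.04; adjusted p = 0.999 in edgeR), with an interval of -0.12 to 0.05. Ntrk3, on chromosome 7, 85337248 to 85723294, had 97.5, 109 and 123 CPM as lowest, median and highest congenic values and 105, 108 and 126 CPM as those of wild-type mice. Its highest value was that of the wild-type female Sample_4738, and the congenic females Sample_4804 and Sample_4737 lay below every wild-type mouse, at 97.5 and 101 CPM. The log2 fold change was 0.01 (SE 0.05; adjusted p = 0.999 in edgeR), with an interval of -0.10 to 0.11.

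Ngfr, on chromosome 11, 95430132 to 95449049, encodes the low-affinity receptor that binds all neurotrophins and can signal cell death. It had lowest, median and highest levels of 1.91, 2.65 and 3.27 CPM for congenic mice, against 1.41, 2.52 and 3.32 CPM for wild-type mice, the congenic range lying within the wild-type one. The log2 fold change was 0.07 (SE 0.15; adjusted p = 0.999 in edgeR), with an interval of -0.24 to 0.39. Sort1, on chromosome 3, 108087009 to 108164429, encodes sortilin, which binds proneurotrophins and directs BDNF into secretory vesicles. It had 427, 519 and 577 CPM as lowest, median and highest congenic values and 480, 529 and 551 CPM as those of wild-type mice. Congenic males gave both extremes, Sample_4673 the lowest and Sample_4671 the highest. The log2 fold change was -0.03 (SE 0.05; adjusted p = 0.999 in edgeR), with an interval of -0.14 to 0.08.

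**Figure D2:**
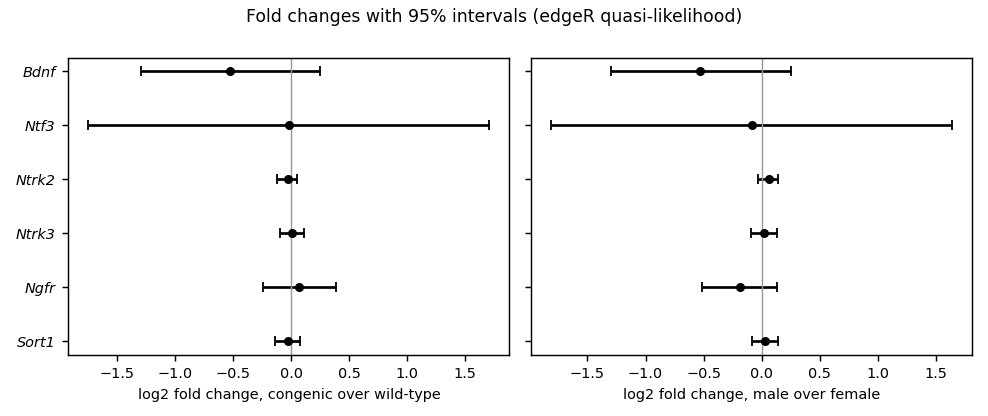
Log2 fold changes of the 6 genes, congenic over wild-type on the left and male over female on the right, with points for the edgeR estimate and bars for the 95% interval. Every interval spans 0, and those of Bdnf and Ntf3 are the widest, at -1.30 to 0.25 and -1.75 to 1.71 by genotype.

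The sexes did not differ detectably in any of the 6 genes either: edgeR called 0 of 6, as did DESeq2 and limma-voom, with 0 at an unadjusted p under 0.05 in each. Over all genes 0.138% were called by sex (23 of 16716), and 15 of 16803 without Sample_4806. Bdnf had 0.759, 1.97 and 6.22 CPM as lowest, median and highest values in males and 1.44, 3.75 and 5.1 CPM in females. Males held both the lowest and the highest mouse, and the log2 fold change was -0.53 (SE 0.36; adjusted p = 0.506 in edgeR). It was -0.59 without Sample_4806 and 0.08 with the cortical score in the model, neither of them called. Ngfr averaged 2.32 ± 0.574 CPM in males and 2.66 ± 0.51 CPM in females (SD over 8 mice each). Its log2 fold change was -0.19 (SE 0.15; adjusted p = 0.562 in edgeR), and -0.21 without Sample_4806. Ntrk2, Ntrk3 and Sort1 had log2 fold changes of 0.06, 0.02 and 0.03 in males over females (SE 0.04, 0.05 and 0.05). Without Sample_4806 these were 0.04, 0.01 and 0.01. For Ntf3 the log2 fold change was -0.08 (SE 0.81; adjusted p = 0.973 in edgeR), with an interval of -1.81 to 1.64. It was 0.16 without Sample_4806 and -1.40 without Sample_4733 (unadjusted p = 0.0229, adjusted p = 0.327 in edgeR). The interval for Ntf3 thus excluded neither a fall nor a rise within its bounds.

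The genotype effect differed between the sexes for 0 of the 6 genes, where edgeR called 0% of all genes (0 of 16716, with 698 at an unadjusted p under 0.05) and limma-voom 0 as well (722). Ngfr came nearest. Its congenic males had 2.01, 1.91, 2.2 and 2.51 CPM, against 3.32, 2.62, 2.59 and 1.41 CPM in wild-type males. Congenic females had 3.04, 2.79, 3.27 and 2.8 CPM, against 3.02, 1.76, 2.12 and 2.45 CPM in wild-type females. The congenic males thus lay below the congenic females without overlap, and the wild-type sexes overlapped. How many of all genes part in this way was not counted. The difference between the genotype effects was -0.55 on the log2 scale (SE 0.28, unadjusted p = 0.0668, adjusted p = 0.967 in edgeR), and -0.56 without Sample_4806. Without each mouse in turn this difference was -0.73 to -0.37 (unadjusted p 0.00429 to 0.197 in edgeR) and was never called, so it too depends on single mice. For Ntf3 it was 2.62 (SE 1.53; adjusted p = 0.967 in edgeR), and 2.32 without Sample_4806. It was -0.01 without Sample_4733 and 4.25 without Sample_4804, so the value depends on single mice.

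Both ends of Ntrk2 were well covered. By the annotation rebuilt into bins, bins 15 and 16 of its 22 belong to transcripts that stop before the kinase. Bins 17 to 22 belong to those that go on. The places of bins in Ntrk2, Ntrk3 and Sort1 rest on an equal number of rebuilt and deposited bins, which does not secure each place. The known truncated end, bin 16, held 18071.9 counts per mouse on average over 5008 bases, and bin 15, the end of another annotated truncated transcript, 42.9 counts over 1288 bases. The last kinase bin, bin 22, held 18070.8 counts over 5803 bases, most of it, like bin 16, untranslated. The truncated end took 44.8 ± 3.35% of the counts of both ends (SD, n = 16 mice), and 80.9% in congenic and 80.1% in wild-type mice when bin 22 was left out of the kinase side. Counts over all bins exceeded those over all genes in every mouse, so a read or pair that spans several bins may be counted in each. The kinase end, spread over bins 17 to 22, may gain counts in this way over the truncated end, nearly all in bin 16. The share therefore depends on which bins stand for an end, and it compares mice rather than numbers of molecules.

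Bins of like length give a view that depends less on length. Short bins gain counts per base, since a read that overlaps one by any length may be counted there. Bin 18 in the kinase part of Ntrk2 (131 bases) held 40.4 ± 4.34% of the counts of the shared bin 10 (133 bases; SD, n = 16 mice), and bin 19 (173 bases) 43.5 ± 4.25% of those of bin 8 (155 bases). As a check before the transcripts part, bin 6 held 101 ± 2.22% of bin 7, with 72 and 69 bases, and bin 5, with 75 bases, 108 ± 4.04% of bin 7 (SD, n = 16 mice). Some annotated kinase transcripts lack these bins, so they are not shared by all transcripts as bins 8 and 10 are. Kinase exons thus had fewer counts than shared exons of like length in all mice, from 31.8 to 47.4% for bin 18. No correction was made for a bias towards either end of the transcript.

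**Figure D3:**
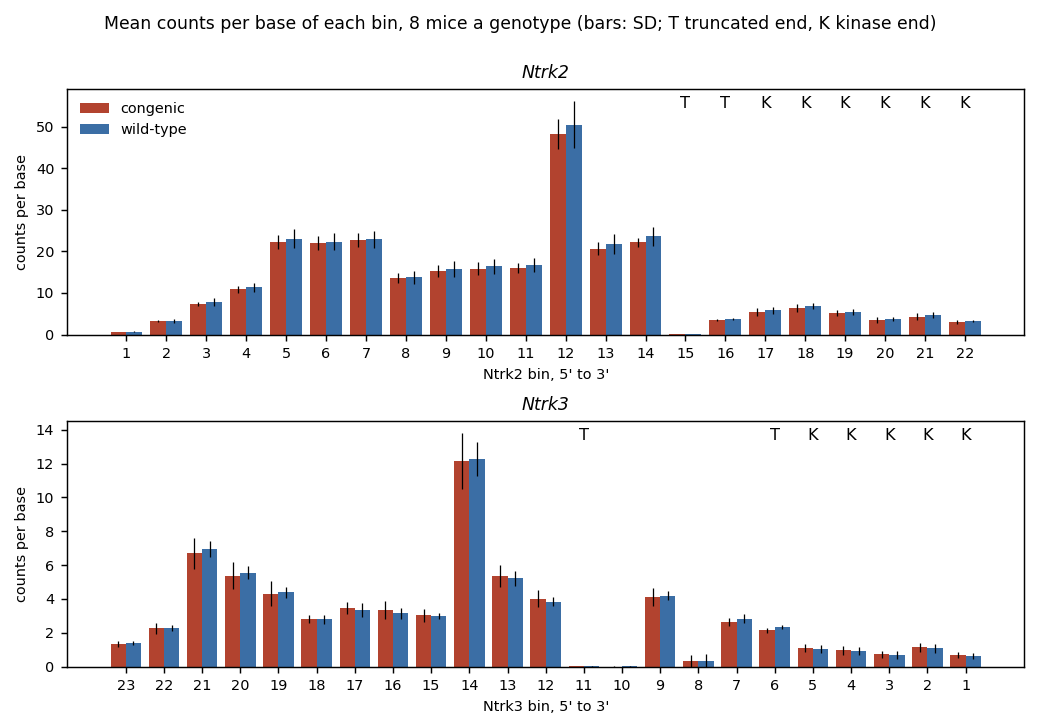
Mean counts per base of each bin of Ntrk2 and Ntrk3 in the order of transcription, congenic bars left of wild-type bars, with SD over 8 mice. T marks truncated and K kinase ends; the genotypes run close together, the kinase bins of both genes are lower than the shared coding bins before them, and very short bins are inflated.

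The Ntrk2 truncated share had lowest, median and highest values of 37.3, 45.9 and 51.7% in congenic and 41.1, 44.2 and 48.2% in wild-type mice. The congenic males Sample_4671 and Sample_4673 were the extremes, and the wild-type range lay within the congenic one. Means were 45.2 ± 4.19% in congenic and 44.4 ± 2.45% in wild-type animals (SD over 8 mice each), a difference of 0.86 percentage points with a 95% interval of -2.91 to 4.63 (two-sided exact permutation p = 0.632, adjusted p = 0.812 over 6 share tests). Males had 45.3 ± 4.02% and females 44.2 ± 2.67% (SD, n = 8 each; exact permutation p = 0.537, adjusted p = 0.812), a difference of 1.1 points, and of 1.66 points without Sample_4806.

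Ntrk3 showed the same arrangement with fewer counts. Its truncated transcripts end in bin 6 (425 bases, 950.8 counts per mouse), reached through the coding bin 7, and its kinase end is bins 1 to 5, since bins are numbered against transcription here. A retained-intron transcript ends in bin 11 and held 5.4 counts, which were added to the truncated end. Bin 7 (135 bases) held 81.2 ± 11% of the counts of the shared bin 16 (142 bases; SD, n = 16 mice), while the kinase bin 5 (131 bases) held 30 ± 4.9%. The counts at the parting of the transcripts were thus higher on the truncated side, and bin 7 ranged from 60.8 to 105% and bin 5 from 20.4 to 38.3%, without overlap.

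The Ntrk3 truncated share of end counts had lowest, median and highest values of 45.5, 47.3 and 58.1% in congenic and 46.6, 52.6 and 64.1% in wild-type mice. Wild-type male Sample_4712 was highest, and 5 of 8 congenic mice lay between 45.5 and 47.5%. Means were 50.5 ± 5.32% in congenic and 53.7 ± 6.39% in wild-type animals (SD over 8 mice each), a difference of -3.28 points with a 95% interval of -9.61 to 3.04 (two-sided exact permutation p = 0.28, adjusted p = 0.812). Males averaged 53.3 ± 6.46% and females 50.9 ± 5.5% (SD, n = 8 each; exact permutation p = 0.437, adjusted p = 0.812), and the difference of 2.37 points was 2.07 points without Sample_4806 and 0.829 points without Sample_4712. By genotype it was -1.81 points without Sample_4712. Here too the share depends on the bins: set per base it was 39.8% in congenic and 43% in wild-type mice, and with bins 6 and 7 as the truncated end 58.3% in congenic and 61.5% in wild-type mice, at differences of -3.24 and -3.23 points. A read or pair that spans several of the kinase bins 1 to 5 may be counted in each. With 8 mice a group, the 95% interval by genotype excluded neither a fall nor a rise within its bounds.

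**Figure D4:**
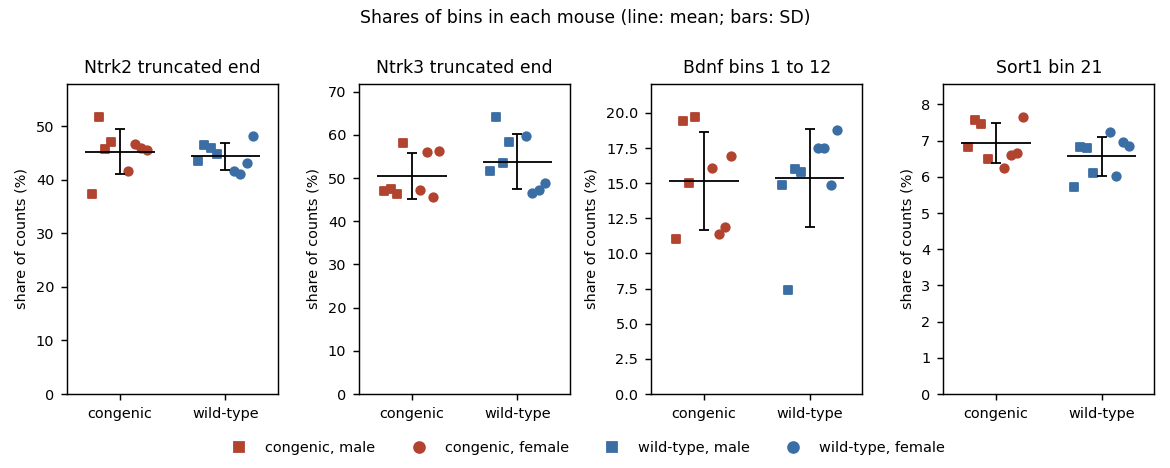
Shares of counts in each mouse, in percent, for the truncated ends of Ntrk2 and Ntrk3, bins 1 to 12 of Bdnf and bin 21 of Sort1, congenic left of wild-type, squares for males and circles for females, lines for means and bars for SD. The genotypes overlap in all 4 panels, and the lowest Bdnf share, 7.39%, is that of the wild-type male Sample_4712.

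For Bdnf the leader exons could be reported by bin number only. The gene is known for several promoters, each with its own leader exon spliced to a shared coding exon. The rebuilt annotation also gave 13 bins, but the deposited counts did not fall where it puts the coding exon. Bin 13, which has 41 bases there, held 84.7% of 4168 counts over all mice (exact binomial 95% interval 83.6 to 85.8%, counting error only, with counts taken as independent). Bin 12, which has 3625, held 0.192%. The bins are therefore not tied to named leader exons. By number, bin 1 held 4.65% of the counts, bin 8 4.08%, bin 6 2.47%, bin 3 1.8% and bin 4 1.27%. Bins 7 and 9 held 0 counts, which allows a share of up to 0.072% when the limit is set at 3 counts, and up to 0.0885% by the exact interval, for counting error only. Counts varied between the lanes of a mouse more than independent counts would, so these limits and the interval above are too narrow.

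Bins 1 to 12 together held 15.2 ± 3.47% of Bdnf counts in congenic and 15.3 ± 3.49% in wild-type animals (SD over 8 mice each). Lowest, median and highest values were 11, 15.6 and 19.7% in congenic and 7.39, 15.9 and 18.8% in wild-type mice, and the ranges overlapped over most of their span, with Sample_4712 lowest. The difference was -0.155 points, with a 95% interval of -3.88 to 3.57 (two-sided exact permutation p = 0.93, adjusted p = 0.93). Males averaged 14.9 ± 4.08% and females 15.6 ± 2.69% (SD, n = 8 each; exact permutation p = 0.676, adjusted p = 0.812). The difference by sex was -0.741 points, and -0.295 without Sample_4806.

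Sort1 has a cassette exon of 99 bases, bin 21, between the coding bins 19 and 23. It is printed because the deposited bins set it apart from its neighbours: the exon is in capitals, between the adjoining 30 bases of the exons on either side, on the plus strand of NCBIM37 at chr3:108158390-108158488. Its 33 codons keep the reading frame. A further annotated transcript, Sort1-002, runs unbroken through bins 20 to 23, so counts in bin 21 are not those of the cassette exon alone. Bins 20 and 22, which belong to Sort1-002 only, held 39.6 and 207.7 counts per mouse over 5 and 660 bases.

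Sort1 bin 21: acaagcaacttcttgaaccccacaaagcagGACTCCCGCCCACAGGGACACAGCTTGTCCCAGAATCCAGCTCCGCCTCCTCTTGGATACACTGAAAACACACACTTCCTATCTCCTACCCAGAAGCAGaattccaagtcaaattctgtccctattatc

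Bin 21 held 253.4 counts per mouse on average, beside 2073.3 in bin 19 and 1439.8 in bin 23, which are of like length at 109 and 107 bases. Its share of the counts of the 3 bins ranged from 6.24 to 7.65% in congenic and from 5.73 to 7.25% in wild-type mice, overlapping over most of that span. Means were 6.94 ± 0.545% in congenic and 6.57 ± 0.541% in wild-type mice (SD, n = 8 each; exact permutation p = 0.196). This exon was chosen after the bins had been seen.

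Tested bin by bin against the rest of the gene, 78 bins of the group could be fitted: 27 of 28 in Sort1, 22 of 22 in Ntrk2, 20 of 23 in Ntrk3, 6 of 6 in Ngfr and 3 of 13 in Bdnf, with none in Ntf3. By genotype 0 of the 78 were called with diffSpliceDGE and 0 with limma diffSplice, and 0 had an unadjusted p under 0.05 with either, where 0.000425% of all bins were called (1 of 235478, with 2461 at an unadjusted p under 0.05). Over all bins too, an unadjusted p under 0.05 by genotype was rarer than a share of 0.05. Log2 differences lay between -0.09 and 0.05 in Ntrk2 and between -0.10 and 0.14 in Ntrk3. The truncated bin 16 of Ntrk2 had 0.02, and its kinase bins -0.09 to -0.01. Bin 6 of Ntrk3 had -0.10 and its kinase bins 0.07 to 0.14. By sex 0 of the 78 were called with either tool, with 0 at an unadjusted p under 0.05, where 0.0157% of all bins were called (37 of 235478), and without Sample_4806 0 of 80.

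The level of Bdnf followed the score of cortical markers. A marker score was the mean, over listed genes, of log2 CPM centred on the mean of all mice, and 8 measures were set against 5 scores, which gave 40 pairs. Bdnf and the score of 20 cortical excitatory neuron genes had r = 0.94 and rho = 0.94 over 16 mice (permutation adjusted p = 0.0004 for each, from the smallest p that 100000 permutations can give). The r was 0.93 without the mice farthest from the median score, Sample_4673 and Sample_4804, 0.95 in males and 0.95 in females, 0.98 in congenic and 0.86 in wild-type mice. Sample_4673, with the lowest Bdnf, also had the lowest cortical score, -0.85, and Sample_4804 and Sample_4734 had the highest scores, 0.64 and 0.62, with 5.1 and 6.22 CPM of Bdnf. All 20 cortical markers were detected, none was at 0, and their summed level was 516 to 838 CPM for congenic mice, against 591 to 820 CPM for wild-type mice, and 516 to 820 CPM in males and 555 to 838 CPM in females. Their part in the spread of Bdnf was not tested beyond the model with the score.

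The 5 genes most like Bdnf over the 16 mice were Neurod6, Rtn4r, Cck, Slc17a7 and Prss23, each with r = 0.97 among 16716 genes. Neurod6 and Slc17a7 are themselves among the listed cortical markers, and Rtn4r encodes the Nogo receptor. Those most like Ntf3 were Col23a1 (r = 0.91), Cacng5, C130074G19Rik and Matn2 (0.90) and Tmem212 (0.89). Tmem212 is an ependymal marker in the lists used here.

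Ntf3 followed the score of 12 septum and pallidum genes, regions next to the striatum, with r = 0.85 and rho = 0.79 (permutation adjusted p = 0.002 and 0.0106; 16 mice). The r was 0.73 without Sample_4733 and Sample_4753, 0.79 in males and 0.91 in females. Sample_4733, the mouse with 1.01 CPM of Ntf3, had the highest septum and pallidum score, 0.70. Of these 12 markers none was at 0, and their summed level was 167 to 322 CPM for congenic mice, against 177 to 295 CPM for wild-type mice. Sort1 ran the other way, with r = -0.69 and rho = -0.72 (permutation adjusted p = 0.0411 and 0.0251), -0.69 without the same pair of mice, -0.70 in males and -0.72 in females.

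**Figure D5:**
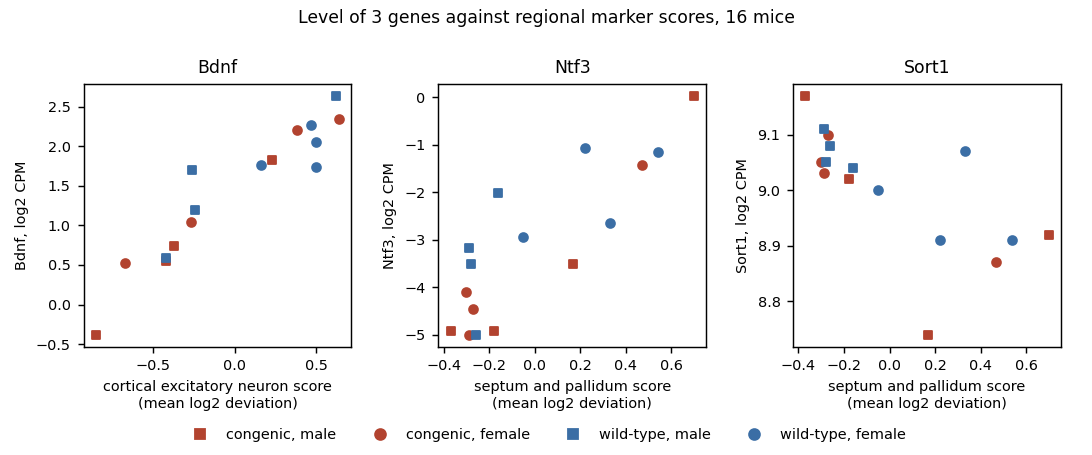
Log2 CPM of Bdnf against the cortical excitatory neuron score, and of Ntf3 and Sort1 against the septum and pallidum score, for 16 mice, congenic in red and wild-type in blue, squares for males and circles for females. Bdnf rises with its score in both genotypes (r = 0.94), Ntf3 rises (r = 0.85) and Sort1 falls (r = -0.69) along theirs.

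Sort1 and the score of 20 medium spiny neuron genes had r = 0.66 (permutation adjusted p = 0.0545) and rho = 0.72 (adjusted p = 0.0251). With the median of the genes as the score, r was 0.71 (permutation adjusted p = 0.0271), so only r with the mean score missed the threshold. With the mean score r was 0.78 in males and 0.90 in females. The genes most like Sort1 were Mapt (r = 0.95), which encodes tau, Tubb4a (0.94), Nefl and Sec31a (0.93) and Dagla (0.92). Ngfr and the score of 15 astrocyte genes had r = 0.64 (permutation adjusted p = 0.056) and rho = 0.60, and the genes most like Ngfr were Ntsr2 (0.84), Lcmt2 and Rgs3 (0.80) and Capg and Mid1ip1 (0.79).

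Neither the Ntrk2 level nor its truncated share had a relation to the astrocyte score that passed the correction. The level had r = 0.13 (permutation adjusted p = 0.8) and the share r = 0.49 and rho = 0.46 (adjusted p = 0.215 and 0.242; 16 mice). The share had r = -0.52 against the cortical score (adjusted p = 0.169). Of the 40 pairs, 3 passed by Pearson's r and 4 by Spearman's rho. The genes most like Ntrk2 were Trim65 (0.82), 1700120K04Rik and C78339 (0.78), St14 (0.76) and A930007I19Rik (0.75), and those most like Ntrk3 were Unc79 (0.91), Crebbp and Zzef1 (0.90), Ash1l (0.87) and C230081A13Rik (0.85).

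No gene of the wider pathway was called between the genotypes. Of 121 listed genes tested, edgeR called 0, DESeq2 0 and limma-voom 0, with 0, 1 and 0 at an unadjusted p under 0.05. Over all 16716 genes these tools called 0%, with 256, 268 and 277 at an unadjusted p under 0.05, again a smaller share than 0.05. Median log2 fold changes were -0.04 for 16 ligand and processing genes, -0.06 for 14 other receptors, 0.01 for 45 Trk adaptors and signalling genes, 0.06 for 22 BDNF-responsive genes and 0.02 for 24 regulators of Bdnf transcription, against 0.00 over all genes tested. The smallest p among the other receptors was that of Sorcs3, a sortilin relative, at 31.8 ± 5.8 CPM for congenic mice, against 37 ± 5.27 CPM for wild-type mice (SD over 8 mice each). Its log2 fold change was -0.22 (SE 0.11; adjusted p = 0.999 in edgeR). Sh2b2, an adaptor of receptor kinases, had 2.08 ± 0.254 CPM for congenic mice, against 2.39 ± 0.308 CPM for wild-type mice (SD over 8 mice each; adjusted p = 0.999 in edgeR).

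By sex, 2 of the 121 listed genes were called higher in males and 0 lower, where 0.138% of all genes were called (13 of 16716 higher and 10 lower). Both were BDNF-responsive genes that encode feedback inhibitors of receptor kinase signalling. Spry2 had 81.3 ± 9.38 CPM in males and 62.2 ± 5.42 CPM in females (SD, n = 8 each; log2 fold change 0.38, SE 0.07, adjusted p = 0.0151 in edgeR). Spry4 had 10.3 ± 1.78 CPM in males and 6.92 ± 1.19 CPM in females (SD, n = 8 each; log2 fold change 0.58, SE 0.11, adjusted p = 0.0457 in edgeR). Without Sample_4806 the adjusted p was 0.0492 for Spry2 and 0.105 for Spry4, and with the cortical score in the model 0.061 and 0.156, at log2 fold changes of 0.39 and 0.58. Of 16 fits that each left out a mouse, 14 called Spry2 and 3 called Spry4, and neither was called without Sample_4731 or without Sample_4672.

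Of the 22 BDNF-responsive genes, 21 had positive log2 fold changes in males over females, with a median of 0.45, against 8016 of 16716 and a median of -0.00 over all genes tested. An unadjusted p under 0.05 was found for 15 of the 22, against 2464 of all 16716 genes. The list holds immediate early genes that many stimuli other than BDNF induce. It was chosen with earlier results of these data known, so the contrast with all genes is a description only. The median was 0.39 without Sample_4806 and 0.40 to 0.56 without any other single mouse. With the cortical score in the model 22 of the 22 were positive, with a median of 0.43, and 0 were called. The score of medium spiny neuron genes was -0.0249 to 0.145 in males and -0.194 to 0.0427 in females, and the summed level of these 20 genes 15940 to 18141 CPM in males and 13963 to 17124 CPM in females. Penk, Tac1 and Pdyn belong to both lists, and the part of the medium spiny neuron genes in the result was not tested. None of the 45 adaptor and signalling genes, 16 ligand and processing genes, 14 other receptors or 24 regulators was called by edgeR, with 10, 2, 3 and 6 of them at an unadjusted p under 0.05 and median log2 fold changes of 0.03, 0.04, 0.04 and 0.04. DESeq2 called 11 of all 121 listed genes, 8 of them BDNF-responsive, where it called 259 of all 16716 genes, and limma-voom called 1, where it called 19 of all genes. Among the regulators, Srf, a factor of immediate early genes, came nearest, with 97.9 ± 9.17 CPM in males and 80.9 ± 6.44 CPM in females (SD, n = 8 each; log2 fold change 0.28, adjusted p = 0.0587 in edgeR).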

How the data were processed

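RNA of 16 mice was run on 3 lanes each, giving 48 columns of raw counts per gene and of raw counts per exon bin, as the authors deposited them, not normalised. Per the submitters' processing notes, the tools were limma 3.22.7, edgeR 3.8.6, HTSeq 0.6.1p1 and FastQC 0.10.1, their roles unstated, and the builds mm10 and mm9. Aligner and strand setting are not given in the sources used here; antisense genes may share counts. The labels' protocols give stranded paired-end reads and the design text single-end reads, so they do not settle whether a count is a read or a pair. Between lanes of a mouse the dispersion index over genes was 1.89 to 1.94, above that of independent counts. Counts were thus not all independent fragments.

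Lanes of a mouse were summed, since their dispersion index over genes was 1.89 to 1.94, against 4.97 to 30.72 between mice of a genotype and sex; n counts mice. The labels do not state litters. Genes were filtered with filterByExpr on genotype-by-sex groups (minimum count 10, minimum total 15), scaled by TMM and tested with edgeR 4.0.16 (quasi-likelihood, robust), with sex in the genotype model and genotype in the sex model, in R 4.3.3. Adjusted p is Benjamini-Hochberg over all genes or bins, with a threshold of 0.05. CPM uses TMM library sizes; log2 CPM for scores has a prior count of 0.5. Bins were tested with diffSpliceDGE. DESeq2 1.42.0, limma 3.58.1, other scaling, filters, a cortical score covariate and fits without each mouse were tried, and the fits were tested on simulated data. Shares were compared over all 12870 arrangements of mice. Their intervals take each group's own SD.

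Bin positions come from GENCODE transcripts on NCBIM37 (mm9). Their number equalled the deposited one in 16249 of 16655 genes of at least 5 bins (97.6%), Bdnf included, which shows that an equal number does not secure each bin's place. All 282 listed symbols were found, 1 by another symbol. The genes named in a list are those called, otherwise the 3 of smallest p at most; likeness is Pearson's r of log2 CPM. Members and lists were chosen with earlier results of these data known.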

Additional observations from a re-analysis of the deposited data

Results flagged for a closer look

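Of 20 groups of 8 mice examined, 3 held a mouse far from the others by Dixon's criterion, which chance alone passes in about 1 of 20 groups of normally distributed values; CPM of Ntf3 is skewed. Congenic male Sample_4733 had 1.01 CPM of Ntf3, and the next congenic mouse 0.362 CPM; its septum and pallidum score was also the highest, at 0.70. Wild-type female Sample_4738 had 126 CPM of Ntrk3, and the next wild-type mouse 112 CPM. Wild-type male Sample_4712 had 7.39% of its Bdnf counts in bins 1 to 12, and the next wild-type mouse 14.9%.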

How the results depend on the processing

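None of the 6 genes was called by genotype, by sex or in the difference between sexes under any tool, scaling, filter, covariate or left-out mouse tried; for the difference between sexes, DESeq2 and the covariate were not run, and the stricter filter left 5 genes. Some signs turned. Ntf3 by genotype was 0.02 in DESeq2, against -0.02 in edgeR. With the sign kept, limma-voom gave Ntf3 -0.96 by genotype, and -0.71 by sex against -0.08 in edgeR. With the cortical score as covariate, Ntf3 was 0.41 by genotype and 0.58 by sex, Ntrk3 -0.02 and -0.01, Ngfr -0.01 by genotype and Bdnf 0.08 by sex; the cause was not tested. The lists by sex held 2 called genes in edgeR, 11 in DESeq2, 1 in limma-voom and 0 with the cortical score; among BDNF-responsive genes 0 were called without Sample_4672 or Sample_4731 and 4 without Sample_4712. Without each mouse in turn, by genotype, log2 fold changes were -0.72 to -0.28 for Bdnf, -1.30 to 0.24 for Ntf3, -0.02 to 0.04 for Ntrk3, 0.0016 to 0.17 for Ngfr and -0.06 to 0.01 for Sort1; by sex -1.40 to 0.17 for Ntf3, -0.01 to 0.06 for Ntrk3, -0.29 to -0.12 for Ngfr and -0.0010 to 0.06 for Sort1. The differences between sexes were -0.01 to 4.25 for Ntf3, -0.0030 to 0.14 for Ntrk3 and -0.73 to -0.37 for Ngfr. Differences in shares were -0.06 to 1.99 points by genotype and 0.199 to 2.25 by sex for Ntrk2, -4.37 to -1.81 and 0.829 to 3.62 for Ntrk3, and -1.29 to 0.448 and -1.43 to 0.328 for Bdnf bins 1 to 12. Counts over all genes by sex were 23 in edgeR, 259 in DESeq2 and 19 in limma-voom, 12 without Sample_4672 and 76 without Sample_4712. Bins called by sex were 86 in limma diffSplice and 11 without Sample_4806. Both truncated bins of Ntrk3, the coding kinase bins of Ntrk2 and bin 21 of Sort1 were chosen after seeing the data. Counts per base were not run for Bdnf, whose bins are not placed. The stricter filter dropped Ntf3. No paired analysis was possible because the mice of the genotypes share no replicate numbers. Depth limits Ntf3, with 2 to 74 counts.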
